A study of Homo sapiens with 6 samples.

Results

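Replication-dependent histone genes encode the core histones H2A, H2B, H3 and H4 and the linker histones H1 that package newly made DNA. The genes were taken by symbol, as those whose names start with *HIST1*, *HIST2*, *HIST3* or *HIST4* followed by a histone class. The rule found 71 of the 57992 gene identifiers counted. These were 6 H1, 17 H2A, 19 H2B, 14 H3 and 15 H4 genes, of which 55 lie in the *HIST1* cluster, 12 in *HIST2*, 3 in *HIST3* and 1 in *HIST4*. The annotation gives 70 of them as coding and *HIST2H2BC* as a pseudogene.

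RNA-seq was done on HEK293T, a human embryonic kidney line that carries the SV40 large T antigen. Group sh-control was 3 libraries of cells with a nonspecific hairpin, and group sh-*RREB1* was 3 libraries of cells with 1 hairpin against *RREB1*, a zinc finger transcription factor. Both groups were stable lines made with pLKO.1 lentivirus and selected with neomycin, grown in DMEM with 10% FBS, and sequenced from total RNA with a strand-specific kit, so RNA without a poly(A) tail was counted. Nothing states that the replicates were separate cultures, so p-values measure only the spread between these libraries, which may be technical.

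Reads on genes ranged from 12257054 to 33044061 per library, and levels are in CPM, a gene's reads for every 1000000 reads on genes, scaled by TMM. Values are listed for replicates 1, 2 and 3 in that order. *RREB1* measured 27.1, 25.1 and 26.5 CPM in the controls and 23.7, 24.6 and 23.1 CPM with its hairpin. The groups did not overlap, but its log2 fold change of -0.14 missed the threshold (edgeR adjusted p = 0.485), and an exact two-sided permutation test gave p = 0.1, the smallest it can give. The libraries labelled sh-*RREB1* therefore carry that name by their label. In sh-*RREB1* replicate 3, 52.1% of aligned reads lay at several positions and were not counted, compared to 3.66% to 7.63% in the other libraries. The 10 markers of HEK293 cells summed to 594 to 1001 CPM per library, and 12 markers of other cell types, of which *MS4A1* and *CD3E* were at 0 reads, to 4.12 to 13.1 CPM.

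Cells make these histones mainly in S phase, in step with DNA replication. Their mRNAs have no poly(A) tail. They end a few bases after a conserved stem-loop, which SLBP, the stem-loop binding protein, holds through processing, translation and decay, while the U7 snRNP directs the cut. NPAT, a target of cyclin E and CDK2, drives their transcription at histone locus bodies, and replacement histones such as H3.3 come instead from genes that make polyadenylated mRNA through the cell cycle.

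The stem-loop is the element that marks these mRNAs, so it was searched in the reference sequence of GRCh38 within 150 bases after each stop codon, as a stem of 6 base pairs that starts with GG around a loop of 4 bases that starts with TT. It was found in 65 of the 70 coding genes and in 74 of 20033 coding genes of the annotation (0.369%). It began 22 to 67 bases after the stop codon (median 35). The genes held 5 forms of it, in 40, 10, 10, 4 and 1 genes. An example of each form follows in that order, then those of the genes with a called change, with the stem and loop in capitals, DNA letters, 5′ to 3′ on the strand of the gene.
*HIST1H1C*, minus strand, chr6:26055739-26055764: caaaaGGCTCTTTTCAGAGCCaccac
*HIST1H4C*, plus strand, chr6:26104312-26104337: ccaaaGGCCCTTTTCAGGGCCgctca
*HIST1H2BK*, minus strand, chr6:27146361-27146386: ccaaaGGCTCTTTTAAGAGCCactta
*HIST2H4A*, plus strand, chr1:149833027-149833052: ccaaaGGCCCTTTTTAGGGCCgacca
*HIST2H2AC*, plus strand, chr1:149887386-149887411: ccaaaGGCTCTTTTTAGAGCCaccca
*HIST2H3D*, minus strand, chr1:149813223-149813248: ctaaaGGCTCTTTTCAGAGCCactgc
*HIST3H2A*, minus strand, chr1:228457364-228457389: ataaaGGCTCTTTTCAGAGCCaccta
*HIST1H4J*, plus strand, chr6:27824454-27824479: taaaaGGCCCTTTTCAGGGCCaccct

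The H4 genes carried the forms that begin GGCC, and the other classes those that begin GGCT. No match was found for *HIST1H2AG*, *HIST1H2AK*, *HIST1H2BI*, *HIST1H3E* and *HIST1H4L*, which says only that this pattern is not in those windows.

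Promoters of 300 bases, from 250 before to 50 after the RefSeq start of GRCh38.p14, were at hand for 60 of the genes. Searched on both strands, CCAAT, the NF-Y box, stood in 83.3% of them and in 35.7% of all 27305 promoters. The TATA box, TATAAA, stood in 66.7% compared to 11.95%, and the octamer ATTTGCAT, bound by OCT1, in 35% compared to 1.80%. The octamer was in 68.8% of the H2A and 69.2% of the H2B promoters, in 1 of 12 H3 promoters and in no H1 or H4 promoter. CCAAT was in every H1, H2A, H2B and H3 promoter with a sequence, and in 23.1% of the H4 promoters. Those of *HIST2H3D* and *HIST3H2A* are shown because their changes were called with the largest effect and with the least spread, and that of *HIST1H2BK* because it holds all of these motifs. Capitals mark the 3 motifs in either orientation, and a TATA box overlaps its own reverse complement in *HIST1H2BK*.
*HIST2H3D*, minus strand, chr1:149813644-149813943: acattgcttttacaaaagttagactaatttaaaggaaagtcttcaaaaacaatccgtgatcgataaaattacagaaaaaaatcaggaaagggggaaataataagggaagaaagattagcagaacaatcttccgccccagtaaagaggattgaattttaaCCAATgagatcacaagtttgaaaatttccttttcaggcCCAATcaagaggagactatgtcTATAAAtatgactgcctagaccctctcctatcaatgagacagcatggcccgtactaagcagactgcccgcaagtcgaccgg
*HIST3H2A*, minus strand, chr1:228457824-228458123: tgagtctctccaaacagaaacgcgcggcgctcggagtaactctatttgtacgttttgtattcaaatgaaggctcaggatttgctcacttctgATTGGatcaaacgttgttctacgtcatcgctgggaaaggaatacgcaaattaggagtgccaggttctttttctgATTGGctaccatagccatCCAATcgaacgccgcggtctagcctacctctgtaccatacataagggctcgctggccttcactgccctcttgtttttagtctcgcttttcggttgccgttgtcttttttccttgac
*HIST1H2BK*, minus strand, chr6:27146809-27147108: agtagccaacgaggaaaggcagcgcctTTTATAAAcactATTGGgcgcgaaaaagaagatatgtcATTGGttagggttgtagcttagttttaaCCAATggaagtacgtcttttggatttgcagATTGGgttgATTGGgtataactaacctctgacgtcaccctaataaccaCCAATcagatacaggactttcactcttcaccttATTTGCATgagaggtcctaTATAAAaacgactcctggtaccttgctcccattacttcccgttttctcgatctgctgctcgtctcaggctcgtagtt

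In *HIST2H3D*, CCAAT began 91 and 53 bases and TATAAA 31 bases before the start. In *HIST3H2A*, CCAAT in either orientation began 158, 84 and 66 bases before the start, and neither TATAAA nor the octamer was in the window. *HIST1H2BK* held the octamer 46 and TATAAA 27 bases before its start. *HIST1H2AH* is read in the opposite direction, and 250 bases lie between the starts of this pair.

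The genes differed widely in level. Of the 71, 34 had a mean of at least 10 CPM over the 6 libraries, 42 of at least 1 CPM, and 55 reached the filter of 10 reads in all. Of the 16 below the filter, 6 had no read in any library (*HIST1H3D*, *HIST1H4F*, *HIST1H4G*, *HIST1H2BI*, *HIST1H3I* and *HIST1H4L*) and 10 had between 1 and 9 reads. For *HIST1H3D* and *HIST1H2AD*, 96.6% and 85.3% of the exonic bases are covered on the same strand by another gene in Gencode version 44. The counting used gives no read to either gene where genes overlap. Whether Gencode version 25, used for the counts, holds this overlap was not checked.

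Per kilobase of exon, the linker histone gene *HIST1H1C* and the core histone gene *HIST1H4C* stood highest in sh-control. *HIST1H1C* was at 1053 ± 529 RPKM (SD, n = 3), the CPM per kilobase of exon, and *HIST1H4C* at 1024 ± 353. The SD of each covers the difference between them. Next came the H3 gene *HIST1H3B* at 417 ± 170 RPKM, the H4 gene *HIST1H4E* at 399 ± 213 and *HIST1H4B* at 355 ± 195, which do not differ beyond their spread. The highest H2A gene, *HIST1H2AG*, was at 287 ± 155 RPKM and the highest H2B gene, *HIST1H2BO*, at 271 ± 123. Genes with longer annotated isoforms, such as *HIST2H2BE* with 2224 exonic bases, are set lower on this scale than single short exons.

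All 71 genes together took 0.185%, 0.488% and 0.560% of the reads on genes in sh-control, compared to 0.561%, 0.793% and 0.618% in sh-*RREB1*. The mean was 0.411% ± 0.199 (SD, n = 3) in sh-control and 0.657% ± 0.121 in sh-*RREB1*, a ratio of 1.60, and 1.25 without sh-control replicate 1. Sh-control replicates 2 and 3 held on average 2.83 times the share of sh-control replicate 1, a larger gap than that between the groups. With both strands counted, the shares were 0.192%, 0.505% and 0.580% in sh-control and 0.582%, 0.826% and 0.505% in sh-*RREB1*, so the groups overlapped. Sh-*RREB1* replicate 3 had 3923750 reads on the opposite strand of genes beside 12257054 on their own. The other libraries had 1207964 to 1718516 on the opposite strand. In bulk samples, fewer cells with histone mRNA and less of it per cell cannot be told apart, and the recovery of RNA without poly(A) was not measured.

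**Figure D1:**
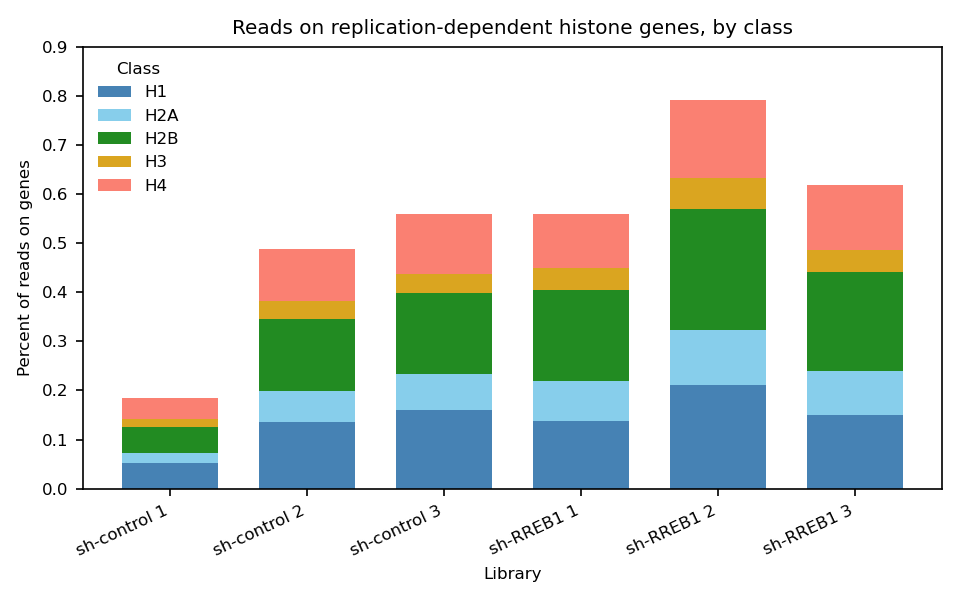
Stacked bars give the percent of a library's reads on genes (vertical axis) that fell on replication-dependent histone genes of each class, in the 6 libraries. Sh-control replicate 1 stands at 0.185% and the other 5 libraries between 0.488% and 0.793%.

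Sh-control replicate 1 was low in nearly all of these genes. It was the lowest of the 6 libraries in 47 of the 55 tested (85.5%), compared to 29.5% of all genes tested, and in 33 of the 34 with at least 10 CPM. Its level was a median of 0.314 times the mean of sh-control replicates 2 and 3. The exception among the 34 was *HIST1H3E*, an H3 gene with no stem-loop found, at 22.2, 22.1 and 20.8 CPM in the controls. *HIST1H2AG* and *HIST1H2AK*, also with no stem-loop found, were low in sh-control replicate 1, at 0.288 and 0.264 times the mean of the other controls. Among the 42 genes with at least 1 CPM, sh-control replicate 1 was the lowest library in 40. *HIST1H2BE*, which has the stem-loop, was not low there, at 3.69, 3.16 and 3.24 CPM in the controls. Of 14 other short RNAs without poly(A), 7 could be tested, and sh-control replicate 1 was the lowest of the 6 libraries in 5 of them, but not for *RNU11* or *SNORD3A*. The list summed to 3468, 13076 and 12893 CPM in the controls and to 11481, 23823 and 22527 CPM in sh-*RREB1*. The signal recognition particle RNA *RN7SL2* and the small nucleolar RNA *SNORD3A* made up most of that sum, *SNORD3A* was slightly lower in sh-*RREB1* replicate 1 (2029 CPM) than in sh-control replicate 1 (2227 CPM), and *RN7SK*, *RN7SL1*, *RMRP*, *RPPH1*, *RNU12* and *SCARNA2* were at 0 reads. Their part in the histone values was not tested.

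**Figure D2:**
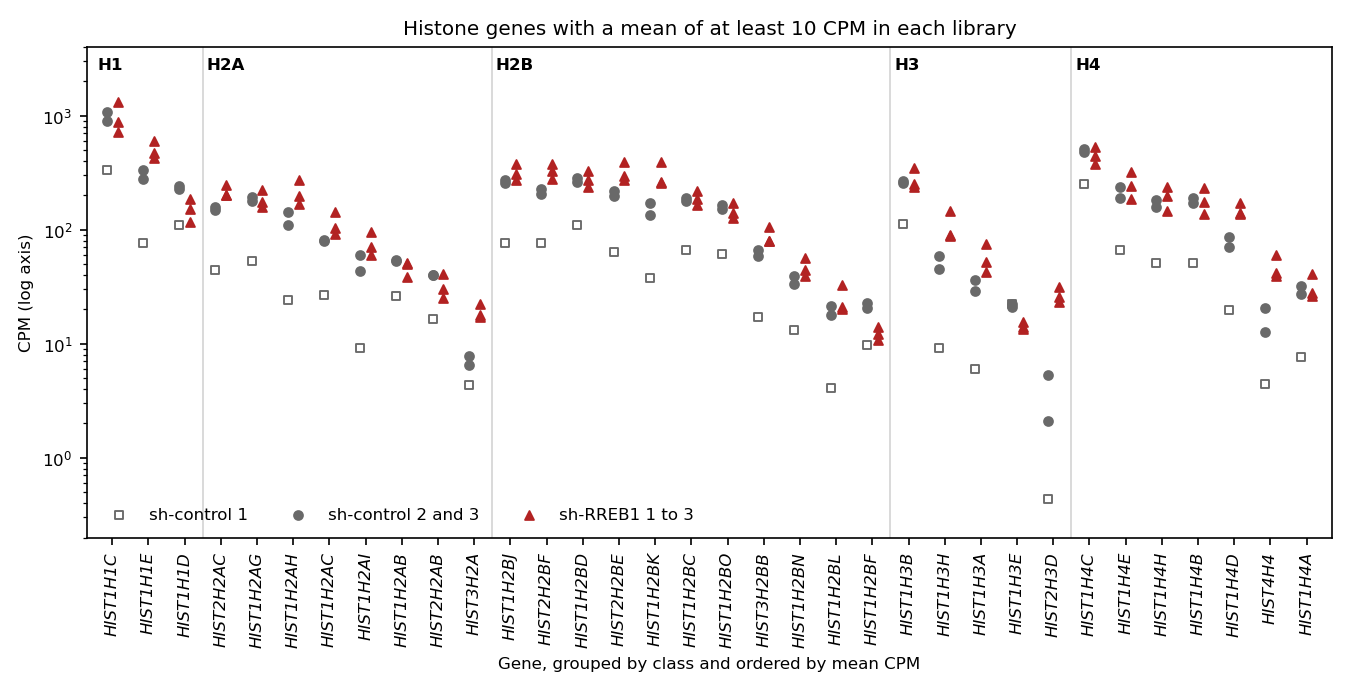
CPM on a log axis of the 34 genes with a mean of at least 10 CPM, with 1 symbol per library, grouped by class. Sh-control replicate 1 (open squares) is the lowest symbol in 33 of the 34 genes.

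The comparison of sh-*RREB1* with sh-control asks which of these genes follow the hairpin against *RREB1*. *HIST2H3D*, *HIST3H2A* and *HIST1H4J* were called higher at an adjusted p below 0.01 with a log2 fold change above 1, and no gene was called lower. At an unadjusted p below 0.05, 18 were higher and 2 lower (32.7% and 3.64%, compared to 18.6% and 15.8% of all genes). DESeq2 called 5 higher and 1, *HIST1H1T*, lower (9.09% and 1.82%, compared to 5.93% and 1.13% of all genes). The edgeR calls are 3 of 55 tested (5.45%), compared to 2.71% of all 23344 genes called higher and 0.698% called lower. The median log2 fold change over the 55 was 0.65, with 45 above 0, and that of all genes was 0.01. Without sh-control replicate 1 the median was 0.29, with 36 above 0.

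*HIST2H3D*, an H3 gene of *HIST2* (ENSG00000183598, chr1:149813225-149813693, 1 exon), was at 0.434, 2.09 and 5.35 CPM in the controls and at 25.9, 31.8 and 23.1 CPM in sh-*RREB1*. All 3 sh-*RREB1* libraries were far above all controls, and the controls differed among themselves by more than 10 times. This is a log2 fold change of 3.32 ± 0.61 (SE), with an edgeR adjusted p of 0.00916. Only 37.0% of its windows of 75 bases occur at a single place in the genome, and it shares 93 windows each with *HIST2H3A* and *HIST2H3C*, so its reads are a part of those it gave.

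*HIST3H2A*, an H2A gene (ENSG00000181218, chr1:228434777-228457873, 3 exons), was at 4.39, 7.79 and 6.50 CPM in the controls and at 22.2, 17.8 and 17.2 CPM in sh-*RREB1*. The groups were apart, and every 75-base window of its exons is found at a single place. This is a log2 fold change of 1.61 ± 0.23, with an edgeR adjusted p of 0.00429, the smallest of the 55. With each library's trend on GC content and exonic length removed, the value was 1.60, compared to 2.25 for *HIST2H3D* and 1.16 for *HIST1H4J*.

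*HIST1H4J*, an H4 gene (ENSG00000197238, chr6:27824092-27824480, 1 exon), was at 0.478, 1.21 and 1.59 CPM in the controls and at 3.78, 5.99 and 3.72 CPM in sh-*RREB1*. This is a log2 fold change of 2.02 ± 0.38, with an edgeR adjusted p of 0.00968. Only 8.57% of its windows are at a single place in the genome, and 91.4% are shared with *HIST1H4K*, which had 16 reads in all. Values of *HIST1H4J* and *HIST1H4K* are therefore uncertain.

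With each library left out in turn, *HIST2H3D* was called without sh-control replicate 1 or 3, and *HIST3H2A* and *HIST1H4J* only without sh-control replicate 1. Without another library, the edgeR adjusted p of the 3 genes ran from 0.0116 to 0.0563, with log2 fold changes from 1.49 to 3.42. With the trend on GC content and length removed as well, *HIST2H3D* and *HIST3H2A* were called in 6 of 6 fits and *HIST1H4J* in 4 of 6. With that trend removed and all libraries kept, 6 genes were called higher, the 3 above and *HIST1H2AL*, *HIST1H4D* and *HIST4H4*, beside 2.91% of all genes higher and 0.891% lower. Without sh-control replicate 1, 5 genes were called higher (those without *HIST1H4D*), beside 3.97% of all genes higher and 0.946% lower.

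*HIST4H4*, the H4 gene that lies alone on chromosome 12, was at 4.43, 12.7 and 20.6 CPM in the controls and at 39.5, 60.6 and 42.1 CPM in sh-*RREB1*. Its log2 fold change of 1.91 ± 0.45 missed the threshold (edgeR adjusted p = 0.0208) and was 2.09 with the trend removed. The H2A gene *HIST1H2AL* was at 0, 0.625 and 0.840 CPM in the controls and at 2.05, 3.66 and 2.77 CPM in sh-*RREB1*, from 0 to 96 reads per library. The groups did not overlap in either gene.

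In 24 of the 55 genes (43.6%) every sh-*RREB1* library was above every sh-control library, compared to 21.1% of all genes tested. In 2 genes (3.64%), *HIST1H1T* and *HIST1H3E*, every sh-*RREB1* library was below, compared to 20.0% of all genes.

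**Figure D3:**
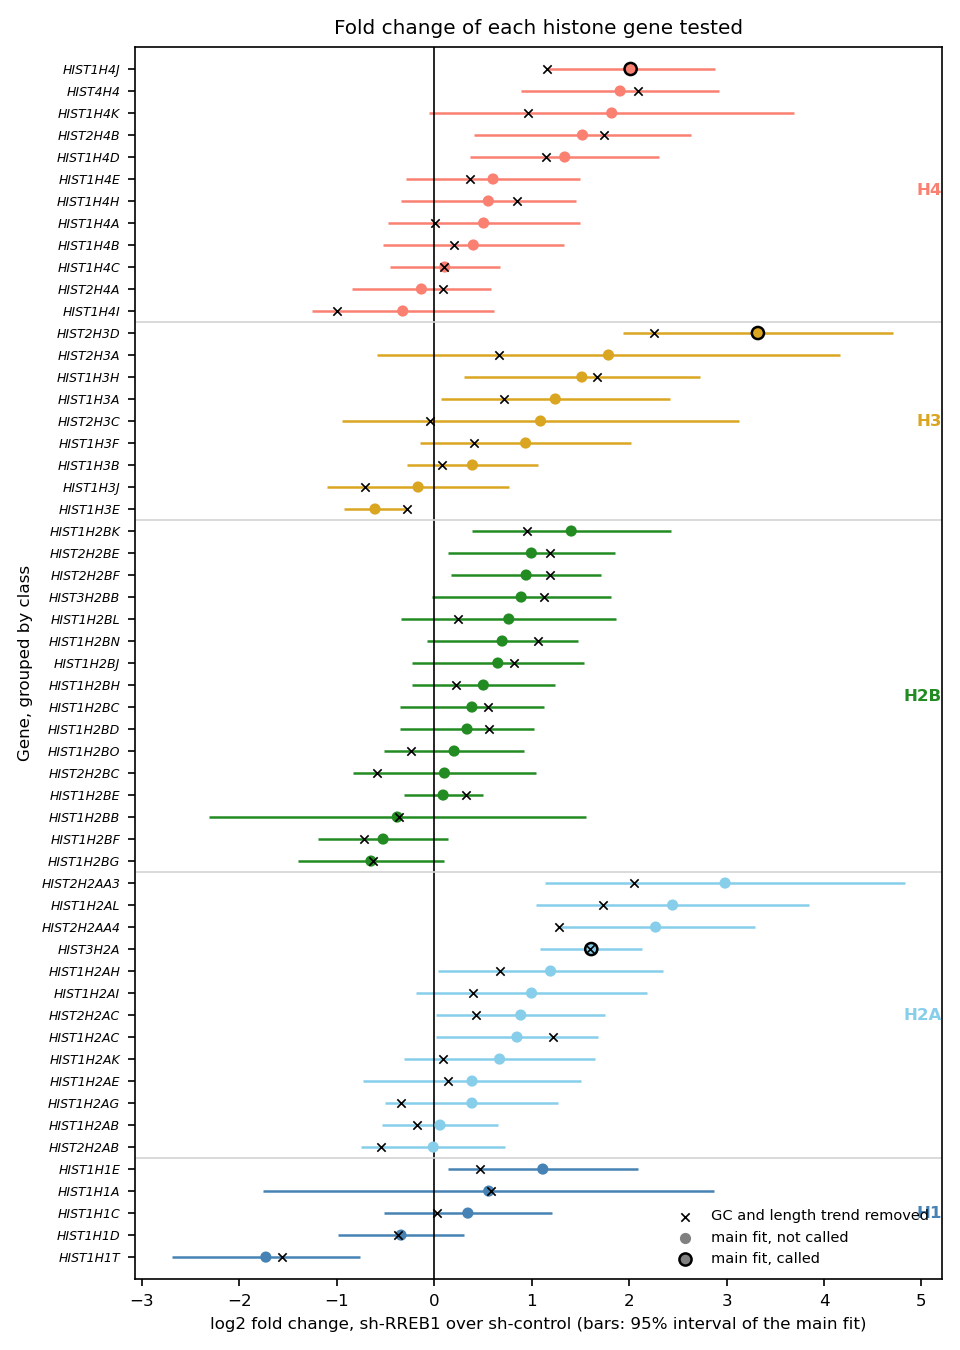
Log2 fold change of the 55 genes tested (horizontal axis) with the 95% interval of the edgeR fit, by class, and the value with the GC and length trend removed (crosses). The 3 called genes are ringed, and 45 of the 55 points lie above 0.

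The classes are described by their medians over the genes that passed the filter, and their order moved with the processing. With the GC and length trend removed, the medians were 0.0301 in H1, 0.42 in H2A, 0.44 in H2B, 0.41 in H3 and 0.61 in H4, and without sh-control replicate 1 they lay between -0.05 and 0.61. Over the 5 H1 genes tested the median log2 fold change was 0.35. EdgeR called none, with 1 higher and 1 lower at an unadjusted p below 0.05 (20% each, compared to 18.6% and 15.8% of all genes). DESeq2 called 1 lower, *HIST1H1T* (20%, compared to 1.13% of all genes). *HIST1H1C* was at 335, 901 and 1074 CPM in the controls and at 726, 1326 and 884 CPM in sh-*RREB1*, so the groups overlapped (log2 fold change 0.35, -0.05 without sh-control replicate 1, and 0.0301 with the trend removed). *HIST1H1E* was at 77.0, 279 and 333 CPM compared to 469, 597 and 426 CPM, with no overlap (1.11, edgeR adjusted p = 0.103, and 0.47 with the trend removed). *HIST1H1D* went the other way, at 109, 228 and 240.1 CPM compared to 117, 188 and 152 CPM (-0.34). The testis histone gene *HIST1H1T* was below 1.5 CPM in every library.

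Over the 13 H2A genes tested the median was 0.89, and 12 were above 0. *HIST2H2AC* was at 44.7, 149.9 and 157 CPM in the controls and at 200.3, 249 and 202 CPM in sh-*RREB1* (0.89, edgeR adjusted p = 0.138). *HIST1H2AH* was at 24.2, 109 and 143 CPM compared to 168, 270.4 and 197 CPM (1.19, adjusted p = 0.133 from edgeR). With the trend removed these were 0.42 and 0.68. In *HIST1H2AG*, at 53.4, 179 and 192 CPM compared to 159, 223 and 173 CPM, the groups overlapped, and the log2 fold change of 0.39 became -0.34 with the GC and length trend removed.

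Over the 16 H2B genes tested the median was 0.45. Neither edgeR nor DESeq2 called any. At an unadjusted p below 0.05, 3 were higher and 0 lower (18.75% and 0%, compared to 18.6% and 15.8% of all genes). *HIST1H2BJ* was at 76.1, 257 and 272 CPM in the controls and at 273, 374 and 305 CPM in sh-*RREB1* (0.65). *HIST2H2BF* was at 76.7, 206 and 229 CPM compared to 277, 378 and 330 CPM (0.94, edgeR adjusted p = 0.0844). *HIST1H2BD* was at 110.5, 265 and 285 CPM compared to 238, 324 and 273 CPM (0.34, and 0.56 with the trend removed). *HIST1H2BF* and *HIST1H2BG* had the lowest values of the class above 1 CPM, with log2 fold changes of -0.52 and -0.65. Without sh-control replicate 1 these were -0.85 and -0.99, with edgeR adjusted p-values of 0.00423 and 0.00428, short of the limit on fold change.

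Over the 9 H3 genes tested the median was 1.09 (0.41 with the trend removed), which is the value of *HIST2H3C*, a gene with 11 reads in all and no window found at a single place. *HIST1H3B*, the most abundant, was at 113, 257 and 269 CPM in the controls and at 237, 348 and 253 CPM in sh-*RREB1*. Its log2 fold change was 0.39, and 0.0804 with the trend removed. *HIST1H3H* was at 9.21, 45.3 and 58.5 CPM compared to 87.4, 147 and 89.8 CPM, and *HIST1H3A* at 6.04, 29.1 and 36.4 CPM compared to 42.8, 74.5 and 52.6 CPM, each without overlap and each with sh-control replicate 1 far below. Their log2 fold changes were 1.52 and 1.24 (edgeR adjusted p = 0.0784 and 0.127), and 1.67 and 0.72 with the trend removed. *HIST1H3E* was at 15.4, 14.0 and 13.4 CPM in sh-*RREB1* (-0.61, edgeR adjusted p = 0.0204). That value lay between -0.66 and -0.57 with any library left out, and was -0.28 with the GC and length trend removed. *HIST1H3J*, which overlaps *HIST1H2AM* on the same strand, was at 0.478 to 1.65 CPM with a log2 fold change of -0.16, and of -0.71 with the trend removed.

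Over the 12 H4 genes tested the median was 0.58. *HIST1H4C* was at 250.2, 483 and 511 CPM in the controls and at 374, 527 and 441 CPM in sh-*RREB1* (0.11). *HIST1H4E* was at 66.0, 192 and 235 CPM compared to 187, 321 and 241 CPM (0.60). *HIST1H4H* was at 50.8, 159 and 182 CPM compared to 145, 235 and 197 CPM (0.56). In each of these 3 the groups overlapped, and sh-control replicate 1 was the lowest library. With the trend removed the values were 0.0970, 0.37 and 0.85.

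The make-up of the histone reads differed between the groups, also apart from their total. Genes of *HIST1* gave 87.8%, 86.7% and 87.0% of the reads on all 71 genes in sh-control and 82.2%, 83.9% and 83.0% in sh-*RREB1*. Genes of *HIST2* gave 10.8%, 11.7% and 11.4% compared to 15.1%, 13.8% and 14.7%. *HIST3* gave 1.15%, 1.31% and 1.27% compared to 1.92%, 1.57% and 1.60%, and *HIST4H4* alone 0.236%, 0.249% and 0.357% compared to 0.740%, 0.766% and 0.702%. In these shares the groups did not overlap for any cluster, and sh-control replicate 1, low in total, stood nearer to the other controls than to any sh-*RREB1* library. No test was made on these sums, since the genes were chosen together.

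**Figure D4:**
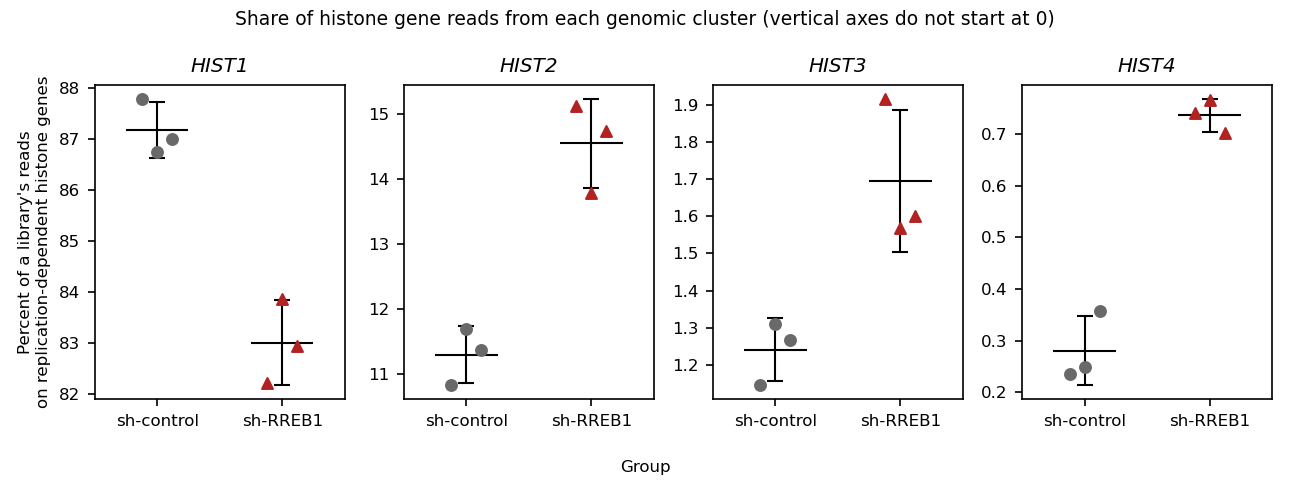
Percent of a library's reads on the 71 genes that came from each genomic cluster (vertical axes, which differ and do not start at 0), in the 3 libraries of each group with the mean and SD. The *HIST1* share is 86.7% to 87.8% in sh-control and 82.2% to 83.9% in sh-*RREB1*, and the other clusters are higher in sh-*RREB1*.

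By class, H2B gave 29.5% ± 0.533 of the histone reads in sh-control and 32.4% ± 1.08 in sh-*RREB1*, and H2A 12.4% ± 1.19 and 14.3% ± 0.277. H1 gave 28.0% ± 0.557 and 25.2% ± 1.27, and H4 22.6% ± 1.22 and 20.4% ± 0.734. For H3, 7.43% ± 0.627 and 7.77% ± 0.305 differed by less than the spread between replicates.

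Copies of nearly the same sequence limit what the counts can show for some genes. In 13 of the 71 genes, under 50% of the 75-base windows are at a single place in the genome, and in 6 none is. *HIST2H2AA3* and *HIST2H2AA4*, *HIST2H3A* and *HIST2H3C*, and *HIST2H4A* and *HIST2H4B* share 99.1% to 100% of their windows pair by pair. *HIST2H2AA3* had 31 reads in all 6 libraries. Of these 13 genes 12 were tested, some with few reads. These 12 held 2 of the 3 edgeR calls, with a median log2 fold change of 1.66. The other 43 genes tested held 1 call, with a median of 0.51, while 2.71% of all genes were called higher. With the GC and length trend removed the medians were 1.06 and 0.33. Reads at several positions, which were not counted, made up the largest share in sh-*RREB1* replicate 3, and the part of this in the values of the 13 genes was not tested.

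H2A and H2B genes often stand head to head with a short stretch between their starts. *HIST1H2BK* and *HIST1H2AH* had log2 fold changes of 1.41 and 1.19, *HIST1H2BJ* and *HIST1H2AG*, 247 bases apart, of 0.65 and 0.39, and *HIST3H2A* and *HIST3H2BB*, 229 bases apart, of 1.61 and 0.89. *HIST1H2BG* and *HIST1H2AE*, 232 bases apart, had -0.65 and 0.39. Reads on the opposite strand of the 71 genes were 1.01% to 1.86% of both strands together.

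The machinery that makes and degrades histone mRNA was followed with a list of 40 genes, of which 39 could be tested. *CPSF1* and *UPF1* were called higher (5.13%, compared to 2.71% of all genes), and the median log2 fold change was -0.16. None was called lower by edgeR or DESeq2, with 15 lower and 8 higher at an unadjusted p below 0.05 (38.5% and 20.5% of the list, compared to 15.8% and 18.6% of all genes). *CPSF1*, a subunit of the cleavage factor, was at 2.87, 7.06 and 11.0 CPM in the controls and at 31.0, 36.1 and 26.4 CPM in sh-*RREB1* (2.15, edgeR adjusted p = 0.00917, and 1.06 with the GC and length trend removed). *UPF1*, a helicase of mRNA decay, was at 16.7, 24.8 and 28.8 CPM compared to 56.9, 60.9 and 47.7 CPM (1.23, edgeR adjusted p = 0.00672). Its value was 0.56, under the limit, with the trend removed. As for the histone genes, sh-control replicate 1 was the lowest library for both. Both were also called without sh-control replicate 1 or 3, and missed the limit on p without any other library, with edgeR adjusted p from 0.0231 to 0.0519.

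*SLBP* was at 121 ± 1.17 CPM (SD, n = 3) in sh-control and at 103 ± 4.91 CPM in sh-*RREB1*, with no overlap (-0.23, edgeR adjusted p = 0.140). *CASP8AP2*, which encodes the FLASH scaffold of the U7 complex, was at 327, 259.8 and 252 CPM compared to 167, 139.7 and 162 CPM. Its log2 fold change of -0.84 passed the limit on p (edgeR adjusted p = 0.00569) and not that on fold change. *NPAT* was at 168, 146 and 136 CPM compared to 116, 86.3 and 107 CPM (-0.54, edgeR adjusted p = 0.0285). With the GC and length trend removed, the log2 fold changes of *SLBP*, *CASP8AP2* and *NPAT* were -0.0139, -0.47 and -0.18. The U7 proteins LSM10 and LSM11 had log2 fold changes of 0.98 and 0.18, the U7-associated *ZNF473* -0.08, the exonuclease *ERI1* 0.02 and the H4 promoter factor *HINFP* 0.07, and none passed the test. In the same order, the values with the trend removed were 0.46, 0.44, -0.0157, 0.38 and 0.17. The U7 RNA gene *RNU7-1* had 0 reads in every library.

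Of 17 replacement and variant histone genes 13 could be tested, with a median log2 fold change of 0.13 over the list. The genes called higher were *H1FX* and *H2AFJ* (15.4%, compared to 2.71% of all genes). *H1FX*, a linker histone, was at 1.61, 4.56 and 5.41 CPM in the controls and at 23.3, 20.5 and 14.8 CPM in sh-*RREB1* (2.33, edgeR adjusted p = 0.00649, and 0.76 with the trend removed). *H2AFJ* was at 1.17, 1.54 and 1.12 CPM compared to 3.34, 4.39 and 3.40 CPM (1.54, edgeR adjusted p = 0.00484). With a library left out, both kept the call without sh-control replicate 1, and were at edgeR adjusted p from 0.0102 to 0.0397 without another. The H3.3 genes *H3F3A* and *H3F3B* had log2 fold changes of 0.13 and -0.18, *H2AFZ* 0.12 and *H1F0* -0.57. *H2AFX* had a log2 fold change of 1.04, and of -0.41 with the trend removed.

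Of 24 histone chaperone genes, edgeR called none and DESeq2 1 higher (4.17%, compared to 5.93% of all genes). At an unadjusted p below 0.05, 10 were lower and 2 higher (41.7% and 8.33%, compared to 15.8% and 18.6% of all genes). The median log2 fold change was -0.17. Of 20 genes of S phase, *UHRF1* was called higher (5%, compared to 2.71% of all genes), with a median of 0.04. None was called lower by edgeR or DESeq2, and DESeq2 called 2 higher (10%, compared to 5.93% of all genes). With the limit at an unadjusted p below 0.05, 8 were lower and 4 higher (40% and 20%, compared to 15.8% and 18.6% of all genes). Their sum was 4398, 4934 and 4870 CPM in the controls and 4104, 4941 and 4336 CPM in sh-*RREB1*, so the groups overlapped. Of 18 genes of G2 and mitosis, 1, *AURKA*, was called lower (5.56%, compared to 0.698% of all genes). Of the list 9 were lower at an adjusted p below 0.01 (50%, compared to 2.39% of all genes), and 16 had a log2 fold change below 0 (median -0.60). Their sum was 8531, 8181 and 7886 CPM compared to 4773, 4865 and 4651 CPM, with sh-control replicate 1 the highest library.

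**Figure D5:**
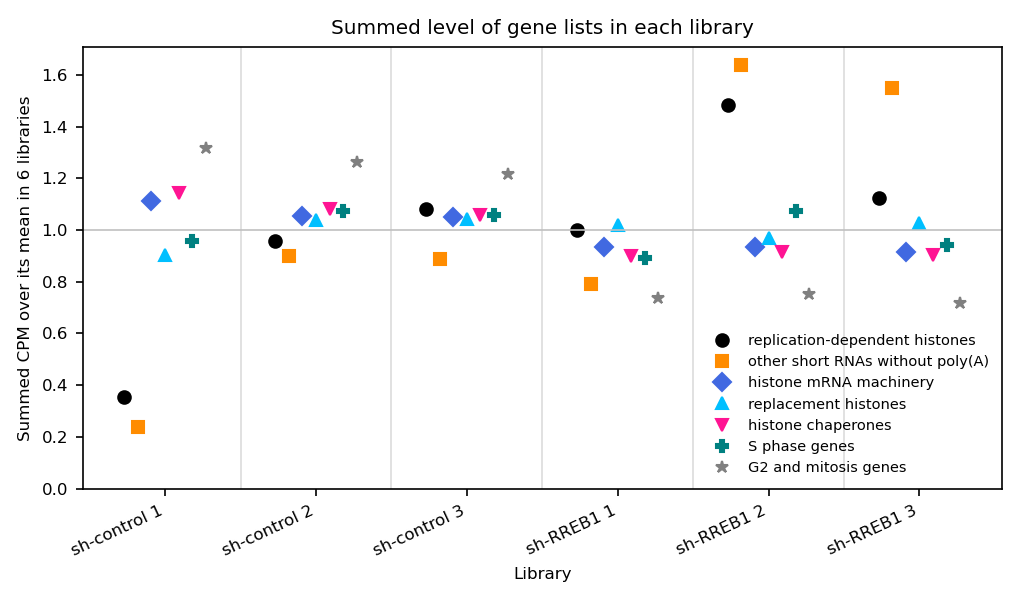
Summed CPM of each gene list over its mean in the 6 libraries (vertical axis), by library. Replication-dependent histones and the other short RNAs without poly(A) are lowest in sh-control replicate 1, at 0.353 and 0.238 of their mean, and the S phase genes lie between 0.893 and 1.07 in every library.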

How the data were processed

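The authors aligned reads with STAR to hg38 and Gencode version 25 and deposited, for every library, raw counts of reads for each gene, without normalization. The column for the gene's own strand was taken. Where identifiers had the same symbol, the one with most reads was kept, and genes under 10 reads in all were dropped. The test was edgeR 4.0.16 in R 4.3.3 (quasi-likelihood, TMM, condition alone, Benjamini-Hochberg adjustment over 23344 genes), with the study's limits on adjusted p (0.01) and log2 fold change (1 in either direction). The study itself used DESeq2 with these limits, and DESeq2 1.42.0 was run here as an alternative. The GC and length trend of a library was modelled by splines with 5 degrees of freedom and removed as an offset, a step that can also remove a true effect. The code was tested on simulated data.

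Positions and exonic lengths came from Gencode version 44 on GRCh38, where 66 of the 71 genes matched by identifier and 5 by symbol, and promoters from RefSeq. RPKM divides CPM by exonic length. Named genes were *RREB1*, called members, the 3 most abundant members of each class, the 5 highest and 5 lowest fold changes above 1 CPM, called genes of the machinery and replacement lists, and 15 further genes of those lists. Other genes were named after their values were seen. The members and lists were chosen with earlier results of these data known. A merged table of the same counts served as an alternative. Depth and 3 libraries per group limit precision.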

Additional observations from a re-analysis of the deposited data

How the results depend on the processing

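The 3 histone calls and the 795 calls over all genes moved with several choices, and the cause was not tested. DESeq2 called 6 histone genes and 1647 genes in all. With the replicate number as a block the counts were 12 and 1682, with the GC and length trend removed 6 and 887, with the trend removed and the replicate block 16 and 1196, with a minimum of 1 read 12 and 1804, and at an adjusted p below 0.05 they were 8 and 2036. Both strands together gave 1 histone call. With each library left out in turn, with and without the trend (an alternative chosen after seeing the data), histone calls ranged from 0 to 13 and all calls from 8 to 1117. Without the trend removed, leaving out any library other than sh-control replicate 1 gave at most 1 histone call. The median of the histone genes stayed above 0 in every alternative, from 0.13 to 0.92. With the trend removed it was 0.41, with 41 of 55 above 0. The median of all genes was then 0.10, with 58.3% above 0. The lowest value, 0.13, came with the trend removed and without sh-control replicate 1, where the median of all genes was 0.03. Replicate numbers are shared across groups, but the deviations of same-numbered libraries correlated at 0.50, 0.43 and -0.28, so they were not taken as pairs.

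Calls in the lists of machinery, replacement, chaperone, S phase, and G2 and mitosis genes were 2, 2, 0, 1 and 1. With a library left out they ranged from 0 to 2, 0 to 2, 0 to 1, 0 to 2 and 0 to 3. With the trend removed, with or without the replicate block, they were 1, 1, 0, 0 and 0. The block alone gave 4 in machinery, 1 in chaperones and 3 in S phase, and 1 among the other short RNAs, as did the minimum of 1 read. DESeq2, the minimum of 1 read and the adjusted p below 0.05 each gave 1 in chaperones and 2 in S phase. Library size alone gave 4 in machinery and 0 in G2 and mitosis, filterByExpr 0 in G2 and mitosis, and both strands 1 in machinery. The median of the machinery list was 0.0701 with the trend removed and 0.0907 with the block as well, -0.10 with filterByExpr, -0.0760 with library size alone, and -0.22 to -0.14 with a library left out. That of G2 and mitosis was -0.43 with the trend removed, with or without the block, and -0.73 to -0.59 with a library left out, and that of the short RNAs ranged from 0.0720 to 0.81.

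The sign reversed in some of the small changes. *H2AFX* went to -0.41 and *HIST1H2AG* to -0.34 with the trend removed, to -0.42 and -0.28 with the block as well, and *ERI1* to -0.01 (-0.00538) with the block. With a library left out, with and without the trend, *H2AFX* ranged from -0.57 to 1.16, *HIST1H2AG* from -0.63 to 0.64, *ERI1* from -0.17 to 0.51, *HINFP* from -0.0786 to 0.27, *ZNF473* from -0.25 to 0.10, *SLBP* from -0.26 to 0.0352, *HIST1H1C* from -0.29 to 0.63, *HIST1H2BD* from -0.0175 to 0.79, *HIST1H3B* from -0.17 to 0.56, *HIST1H3J* from -0.95 to 0.13 and *HIST1H4C* from -0.19 to 0.26. *RREB1* kept its sign and stayed short of a call in every alternative. The planned comparison of protein sequences within a class was not run.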
